A study of Mus musculus with 63 samples.

Results

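The 10 genes described here are the cyclin-dependent kinase inhibitor locus *Cdkn2a* and 9 transcriptional targets of the tumor suppressor p53, *Cdkn1a*, *Mdm2*, *Ccng1*, *Phlda3*, *Trp53inp1*, *Eda2r*, *Sesn2*, *Bbc3* and *Zmat3*. They were taken by name from the 24990 gene rows of the deposited tables. Their RNA was followed in embryos, adult brain and cultured mouse embryonic fibroblasts (mEFs) from a study of *Chaserr*, a long noncoding RNA gene that lies upstream of the chromatin remodeler gene *Chd2*.

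p53 is a transcription factor that is kept low by the ubiquitin ligase MDM2 and is stabilized by DNA damage, oxidative stress and oncogene signaling. It binds a pair of adjacent half-sites, the p53 response element, and turns on genes that arrest the cell cycle, start apoptosis, handle reactive oxygen or limit p53 itself. *Cdkn2a* encodes p16INK4a, an inhibitor of cyclin D kinases, and p19Arf, an inhibitor of MDM2, from separate first exons, and its RNA is known to build up when mouse fibroblasts are grown on plastic in air.

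RNA was measured in 47 libraries. Whole embryos at E9.5 and at E13.5 and adult brains each gave 3 wild-type (WT) and 3 *Chaserr*+/- libraries. The null allele is a deletion of the promoter and first exon of *Chaserr*, carried by a pair of founder lines used interchangeably. They were made in CB6F1 Ola HSD mice and crossed back to C57BL/6 Ola HSD, with early generations used, so the background was mixed. For the double mutants the deletion was made anew in *Chd2*m/m mice. mEFs were primary cultures from E13.5 embryos without head and liver, and they came in 4 sets, each with its own WT mEFs. The *Chaserr*+/- set had 3 mutant and 3 WT libraries from 1 pregnancy, and the *Chaserr*-/- set 3 mutant libraries, numbered 1 to 3, and 3 WT libraries of the same pregnancy, numbered 4 to 6. The *Chd2*m/m set had 2 mutant and 3 WT libraries, where the m allele is a frameshift deletion in the third exon of *Chd2* that leaves some protein. The double-mutant set had 3 *Chaserr*-/- *Chd2*m/m and 3 WT libraries, put together by their descriptions, although the titles name a *Chaserr*+/- *Chd2*+/m cross for the WT and a *Chd2*+/m cross for the mutants, so each double-mutant difference rests on that pairing. All embryos and the third brain library of each genotype were made with a TruSeq stranded mRNA kit, and the other brains and all 23 mEF libraries with the Lexogen SENSE kit, so kit and culture cannot be told apart between mEFs and embryos, while the first 2 WT brains share the kit of the mEFs. A last group of 6 libraries came from RNA immunoprecipitation (RIP) in Neuro2a mouse neuroblastoma cells, with 2 libraries each for an antibody to CHD2, control IgG and input. Poly(A) libraries held between 9672588 and 33191969 counts and RIP libraries between 7621280 and 20050487. Apart from the shared pregnancies, the labels do not say which libraries were separate cultures or litters, so p-values measure the spread between these libraries.

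The genotypes and cell types were first checked against their own genes. *Chaserr* had 0 counts in all 3 *Chaserr*-/- libraries, and its level in the double mutants was at most 0.101 CPM (counts scaled to depth by TMM), against 4.21 to 6.66 and 36.1 to 43.0 CPM in the WT libraries of those sets. *Chd2* was higher in every mutant than in its WT, by a log2 fold change between 0.55 and 1.88, which passed the threshold in all but E9.5 embryos (adjusted p = 0.104) and brain (adjusted p = 1.0). *Chaserr* in the *Chaserr*+/- libraries lay below WT without being called, with means of 8.96 against 16.2 CPM at E9.5, 10.6 against 16.2 at E13.5, 5.83 against 10.8 in brain and 6.00 against 9.79 in mEFs. *Chaserr* in the WT mEFs of the double-mutant set stood apart from the other 9 WT mEF libraries, the highest of which had 11.8 CPM. Fibroblast markers summed to between 1500 and 4290 FPKM (fragments per kilobase of transcript, scaled to depth) in the WT mEFs, with *Fn1* or *Col1a1* the most abundant of 10 genes and none at 0. The libraries labeled Neuro2a went against their label in part. Their input held the sympathetic markers of a neuroblastoma, with *Phox2a* at 235 FPKM, but the myelin gene *Mbp*, which Neuro2a cells should lack, was at a mean of 288 FPKM in input, 497 in the CHD2 RIP and 1170 in IgG, and α-globin was at 403, 678 and 1460 FPKM. Whole WT brain had 2900 FPKM of *Mbp*.

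Sequences matching the p53 response element were looked for near the 10 genes, since a shared element is the feature that joins the p53 targets among them. *Cdkn2a* was searched and counted with the targets. A half-site was taken as 3 purines, the core CNNG with A or T at each N, and 3 pyrimidines, and an element as 2 half-sites with no gap. The search ran on both strands within 5000 bases of the start site, and up to 2 of 20 bases could mismatch, never the C or G of a core. The elements are written 5′ to 3′ on the strand of the gene, in the mm9 genome (NCBIM37), with the 4-base cores in capitals. The first 3 belong to genes with matches of 0 or 1 mismatch and the fourth is the only match of *Eda2r*.

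Zmat3, chr3:32263253-32263272, minus strand, 1337 bases into the gene, intron, 0 mismatches: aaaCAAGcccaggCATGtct
Ccng1, chr11:40568964-40568983, minus strand, 161 bases before the start, 1 mismatch: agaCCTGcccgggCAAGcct
Cdkn1a, chr17:29227873-29227892, plus strand, 2835 bases before the start, 1 mismatch: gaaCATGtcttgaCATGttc
Eda2r, chrX:94571873-94571892, minus strand, 672 bases into the gene, intron, 2 mismatches: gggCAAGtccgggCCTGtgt

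In all, 4 of the 10 genes held 6 such matches, against 9.85% of 22367 annotated genes. With at most 1 mismatch, 3 genes and 1.71% of all genes had one. *Ccng1*, which encodes cyclin G1, had another match in its first kilobase, at chr11:40568438-40568457, and *Zmat3* another 4483 bases before its start, each with 1 mismatch. With 3 mismatches allowed the count rose to 6 genes and the background to 39.4%, adding *Bbc3* and the *Mdm2* element shown next, 643 bases past the start. The exon it is labeled with is that of some annotated *Mdm2* transcript. It overlaps no annotated coding or untranslated part, so it is not placed in the coding mRNA.

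Mdm2, chr10:117147161-117147180, minus strand, exon, 3 mismatches: ggtCAAGttgggaCACGtcc

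A match in sequence is a description and not a bound site. At up to 2 mismatches *Mdm2*, *Bbc3*, *Phlda3*, *Trp53inp1*, *Sesn2* and *Cdkn2a* had none in this window.

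Open chromatin at these starts was read from ATAC-seq peaks, called separately by the authors in each of 12 mEF libraries from the *Chaserr*-/- and the double-mutant sets. These libraries are labeled mEF, but the extraction text in the same labels describes dorsal root ganglia, and the source was taken from the sample titles. A peak lay within 300 bases of the start site in all 12 libraries for 7 of the 10 genes, against 30.8% of all genes. The exceptions were *Bbc3* and *Zmat3*, each without a peak in the same 2 libraries, and *Cdkn2a*. Those 2 libraries had the fewest peaks of the 12, and without them 9 of 10 genes and 50.1% of all genes had a peak in every library. *Cdkn2a* had a peak at its proximal start in 4 of 12 libraries and at its distal start, which lies at chr4:88940557 on the minus strand, in all 12. Of the elements printed above, the one 161 bases before *Ccng1* and the one in *Eda2r* lay under a peak in 12 of 12 libraries, that of *Mdm2* in 10 and the exact match in *Zmat3* in 9. The *Cdkn1a* element lay under none. It is 2835 bases before the start site used here, but the gene model itself begins at 29227924, just past the element. Of the matches not printed, the other one of *Ccng1* lay under a peak in 9 libraries and the one 4483 bases before *Zmat3* in 0. Over all genes, 9.5% of the 2421 matches with at most 2 mismatches were under a peak in any library and 0.991% in all 12. That background leaves out matches with 3 mismatches, such as that of *Mdm2*. It also takes in the whole window, so distance from the start site was not matched.

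The first comparison asked how far mEF cultures differ from the tissues they are made from or set beside. All 10 genes but *Bbc3* were called higher in WT mEFs than in WT embryos, and all 10 than in WT brain. Of the 10, 9 were called higher than in E13.5 embryos, 9 than in E9.5 embryos and 10 than in brain, at an adjusted p under 0.05 in edgeR's quasi-likelihood test, and none was called lower. *Cdkn2a* in all 3 comparisons and *Eda2r* in brain passed the filter on low counts through the mEFs alone and so had to differ, and without them the counts were 8 of 9, 8 of 9 and 8 of 8. Over all genes tested, 30.7%, 34.6% and 35.4% were called higher. Every WT mEF library was above every library of the tissue for 8, 9 and 9 of the 10, beside 22.6%, 25.5% and 27.9% of all genes. The median log2 fold change of the 10 was 3.28, 2.93 and 2.69, beside -0.07, 0.01 and 0.0 for all genes tested. These medians and the counts without overlap still include *Cdkn2a* and, in brain, *Eda2r*. With total counts in place of TMM scaling, the medians of the 10 fell to 2.61, 2.61 and 2.48 and those of all genes to -0.71, -0.29 and -0.19, so that the distance between them was 3.33, 2.90 and 2.67, in place of 3.36, 2.93 and 2.69. The calls against E13.5 embryos were then 2568 higher and 8508 lower, in place of 4805 and 5561. The 3 comparisons share the same 12 WT mEF libraries, so they are not independent, and in bulk RNA fewer cells that use a gene and less RNA per cell cannot be told apart. The 12 libraries fall into 4 sets of 3 but entered these tests as separate libraries. For *Cdkn1a* the SD of log2 CPM was 0.846 between sets and 0.173 within them. The SEs and p-values of the pooled tests are therefore likely too small.

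The cell types present also differed between cultures and tissues. All 9 erythroid markers were called lower in WT mEFs than in either embryo stage, with summed levels of 2.90 to 346 FPKM in mEFs and 11200 to 17000 in E13.5 embryos. Only 5 of the 9 passed the filter on low counts among WT mEFs alone, so the others had to differ. Macrophage markers were called higher for 17 of 17 against E9.5 embryos, where they summed to at most 6.87 FPKM, and for 9 of 17 against E13.5 embryos. Among E9.5 embryos alone only 4 of the 17 passed the filter, so the others had to differ there. All 10 neuron and glia markers were called lower than in brain, and 9 of them passed the filter among WT mEFs alone. Fibroblast markers were called higher for 7 of 10 against each embryo stage and 9 of 10 against brain. The part of these lists in the levels of the p53 targets was not tested.

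**Figure D1:**
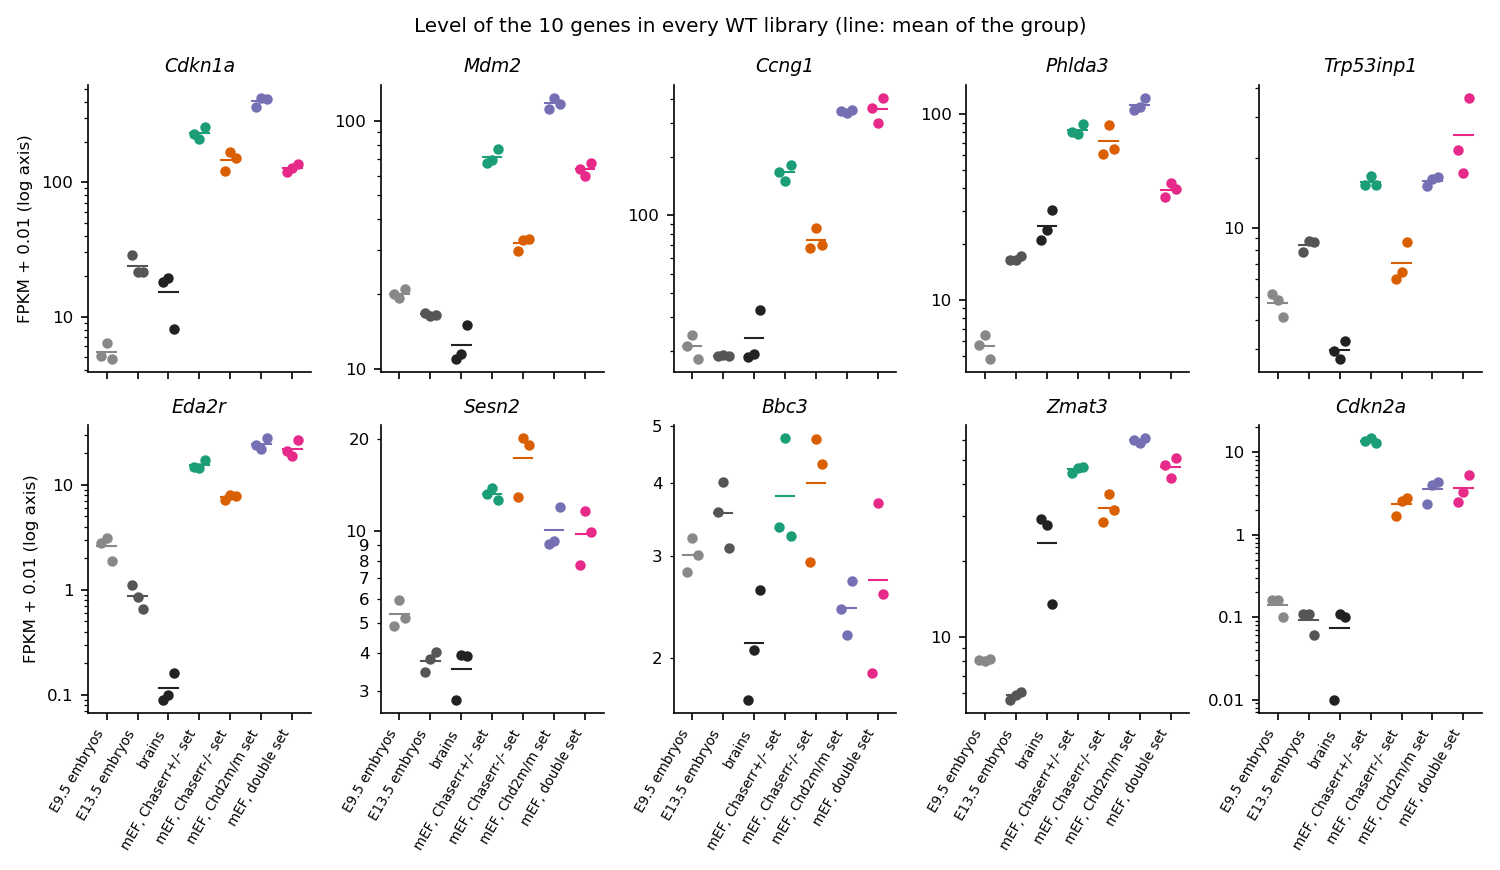
Level of each of the 10 genes in every WT library, as the authors' FPKM plus 0.01 on a log axis, with 1 point per library and a line at the group mean. The 12 mEF libraries lie above all embryo and brain libraries in 7 of the 10 panels, while those of *Trp53inp1*, *Zmat3* and *Bbc3* overlap with them on this scale.

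Among the cell cycle inhibitors, *Cdkn1a*, which encodes p21 and blocks cyclin-dependent kinases in the arrest that follows p53, had an FPKM of 5.09, 6.35 and 4.8 in the WT E9.5 embryos. It had 28.6, 21.6 and 21.3 in the E13.5 embryos and 18.1, 19.4 and 8.02 in the brains. In the 12 WT mEF libraries its FPKM ran from 120 to 428, with no overlap with any tissue. On the CPM scale the mEF libraries had a mean of 463 ± 267 (SD, n = 12) and E13.5 embryos 31.4 ± 5.49 (SD, n = 3), a log2 fold change of 3.98 (SE 0.572, adjusted p = 1.44e-05 from edgeR). The log2 fold change was 5.77 against E9.5 embryos and 4.11 against brain.

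*Cdkn2a* was close to undetected outside culture. It had 3, 3 and 2 counts in the WT E9.5 embryos, 2, 2 and 1 in the E13.5 embryos and 0, 1 and 2 in the brains, against 15 to 153 counts in each WT mEF library. Summed over libraries, mEFs held 752 counts, or 4.62 CPM without TMM scaling, which was 45.6 times the level in E9.5 embryos (exact 95% interval 23.0 to 106), 71.0 times that in E13.5 embryos (30.3 to 219) and 94.4 times that in brain (32.2 to 459). These intervals cover counting error only. In *Chaserr*+/- brain *Cdkn2a* had 0 counts of 55159924, which allows up to 0.0544 CPM. The row joins the p16INK4a and p19Arf transcripts. The abundance-weighted transcript length in the deposited files was at its longest value, 929 bases, in 13 of 23 mEF libraries and fell no lower than 908.55 in the others, so that with lengths of 850 and 929 bases the longer transcript held at least 74.1% of the estimate in each mEF library. Which of the pair is the longer is not given in the sources used here.

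*Ccng1* encodes cyclin G1, which recruits a phosphatase that acts on MDM2. Its FPKM was 21.1, 24.1 and 18.1 in E9.5 embryos, 18.7, 19 and 18.9 in E13.5 embryos and 18.6, 19.2 and 32.3 in brain. In WT mEFs it lay between 67.6 and 406, above every tissue library. The log2 fold change was 4.33 against E13.5 embryos (SE 0.683, adjusted p = 3.68e-05), 3.82 against E9.5 embryos and 3.57 against brain.

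Among genes that limit p53 or shape its response, *Mdm2*, the ubiquitin ligase that marks p53 for degradation, had 20.0, 19.2 and 20.9 FPKM at E9.5, 16.8, 16.3 and 16.5 at E13.5 and 10.9, 11.4 and 15 in brain. In WT mEFs it ran from 29.8 to 124 FPKM, again with no overlap. Its log2 fold change was 2.80 against E13.5 embryos (SE 0.504, adjusted p = 0.00013), 2.18 against E9.5 embryos and 2.75 against brain. *Zmat3*, a zinc-finger RNA-binding protein, was at 32.3, 33.7 and 34.7 CPM in E13.5 embryos and between 227 and 572 CPM in WT mEFs, a log2 fold change of 3.66 (SE 0.31, adjusted p = 5.44e-08). Against brain, where it had 225 and 215 CPM in the Lexogen libraries and 90.9 in the TruSeq library, the log2 fold change was 1.16 (SE 0.302, adjusted p = 0.00239), and the lowest mEF library was only just above the highest brain. With the mEFs of the *Chaserr*-/- set alone it was 0.56 (adjusted p = 0.143). *Trp53inp1*, a stress protein that promotes p53 phosphorylation, had 31.0, 34.2 and 34.2 CPM in E13.5 embryos and 32.9 to 201 in WT mEFs. Those groups overlapped through the *Chaserr*-/- set, and the log2 fold change was 1.59 (SE 0.436, adjusted p = 0.00427). With total counts in place of TMM scaling it was 0.94, with an adjusted p of 0.0505. It was 0.41 with the *Chaserr*-/- set alone (adjusted p = 0.0143) and 2.15 with the double-mutant set alone (adjusted p = 3.12e-05).

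The genes tied to apoptosis did not move alike. *Eda2r*, a death-domain receptor of the TNF receptor family, was at 0.286, 0.292 and 0.451 CPM in brain and 2.84, 2.71 and 2.03 in E13.5 embryos, against 25.4 to 131 CPM in WT mEFs. Its log2 fold change was 7.58 against brain (SE 0.684), from 4 to 17 counts in each brain library. There it passed the filter on low counts through the mEFs alone and had to differ, so no p is given. The log2 fold change of *Eda2r* was 4.93 against E13.5 embryos and 3.02 against E9.5 embryos, where it had 10.6, 11.7 and 6.79 CPM. *Phlda3*, an inhibitor of AKT signaling, rose by a log2 fold change of 2.91 from E13.5 embryos (SE 0.427, adjusted p = 1.76e-05), from 16.1, 16.1 and 17.1 CPM to between 51.2 and 201 CPM. The difference was 4.13 against E9.5 embryos and 1.85 against brain. *Bbc3*, which encodes the BH3-only killer protein PUMA, had 4.87, 5.45 and 4.21 CPM in E13.5 embryos and between 3.69 and 9.67 in WT mEFs. The groups overlapped in all 3 comparisons, with a log2 fold change of 0.54 against E13.5 embryos (SE 0.261, adjusted p = 0.08), 0.43 against E9.5 embryos (adjusted p = 0.147) and 0.82 against brain (adjusted p = 0.0142). Only the last was called. It was lost with the mEFs of the *Chd2*m/m set alone (0.54, adjusted p = 0.052) and those of the double-mutant set alone (0.48, adjusted p = 0.186). It was also lost without WT brain replicate 1 (0.72, adjusted p = 0.0684) and with total counts in place of TMM scaling (0.62, adjusted p = 0.0698). Against E13.5 embryos *Bbc3* was called with the *Chaserr*+/- set alone (0.86, adjusted p = 0.000664) and the *Chaserr*-/- set alone (0.85, adjusted p = 0.00344). The same sets alone called it against E9.5 embryos (0.76, adjusted p = 0.000676, and 0.72, adjusted p = 0.00563). With total counts in place of TMM scaling the direction of *Bbc3* against E13.5 embryos turned, to -0.11 (adjusted p = 0.731).

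*Sesn2*, a stress-inducible regulator of mTORC1 and of peroxide handling, had 6.47, 7.1 and 7.53 CPM in E13.5 embryos and 7.14, 10.1 and 8.52 in brain. WT mEFs had between 20.7 and 53.5 CPM, and did not overlap with either. The log2 fold change was 2.41 against E13.5 embryos (SE 0.26, adjusted p = 7.03e-07), 1.56 against E9.5 embryos and 2.03 against brain.

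**Figure D2:**
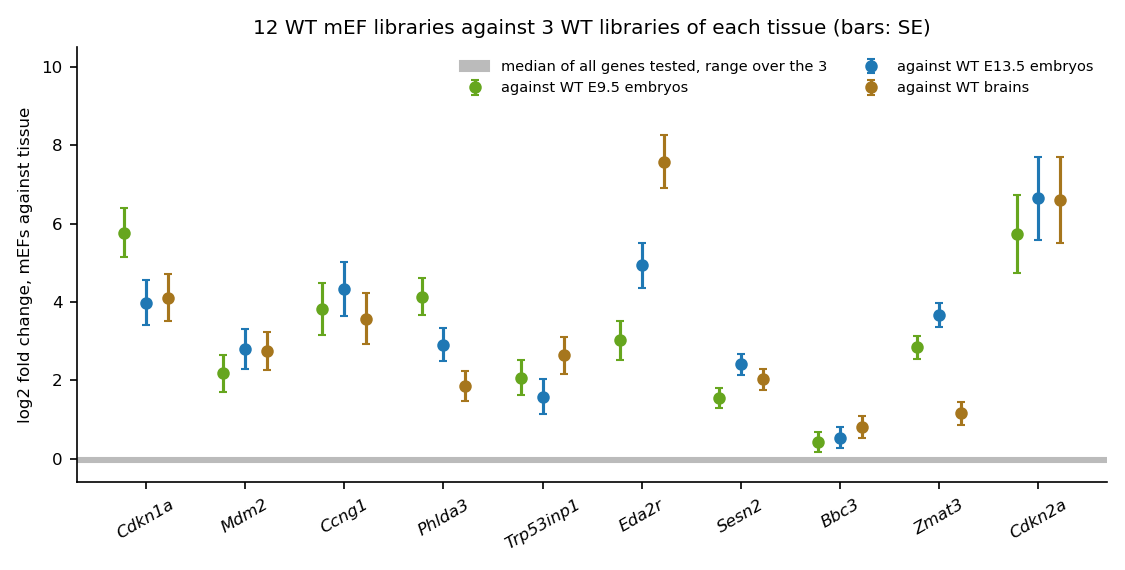
Log2 fold change of each gene in the 12 WT mEF libraries against the 3 WT libraries of E9.5 embryos, E13.5 embryos or brain, with bars of 1 SE. *Bbc3* lies lowest in each comparison, between 0.43 and 0.82, and the gray band at 0 spans the medians of all genes tested.

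The direction was the same against brains of the mEF kit and with 1 mEF set at a time. Against embryos the kit differed in every fit. Against the 2 WT brains made with the mEF kit, all 10 genes were called higher. The log2 fold change was 3.76 for *Cdkn1a*, 3.78 for *Ccng1*, 7.91 for *Eda2r* and 0.84 for *Zmat3*. *Cdkn2a* and *Eda2r* are among the 10 and, as said above, had to differ from brain. The share of all genes called in this fit is not given here, and with all WT brains it was 35.4% higher. Each mEF set taken alone against each tissue placed all 10 genes higher and called 9 or 10 of them. The gene not called was *Bbc3* or, against brain with the *Chaserr*-/- set, *Zmat3*. These counts include *Cdkn2a* and, against brain, *Eda2r*, which had to differ. The shares of all genes called in these fits are not given here. *Trp53*, the gene of p53 itself, was also called higher than in E13.5 embryos (log2 fold change 1.64, adjusted p = 2.49e-06) and brain (3.46, adjusted p = 2.31e-09). It had a mean of 106 FPKM in WT E9.5 embryos, 62.7 in E13.5 embryos and 12.5 in brain, and between 102 and 145 FPKM in the 4 WT mEF sets.

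Other genes of the pathway followed in part. Of 27 further p53 targets, 15 were called higher and 3 lower in mEFs than in E13.5 embryos, with a median log2 fold change of 0.92, 15 and 3 against E9.5 embryos, and 17 and 7 against brain. Over all genes, 35.6%, 35.2% and 37.3% were called lower, beside the 30.7%, 34.6% and 35.4% called higher. Those with the largest rise from E13.5 embryos were the stress cytokine *Gdf15*, from 0.153 to 8.52 FPKM, the epoxide hydrolase *Ephx1*, from 2.38 to 72.8 FPKM, and the death receptor *Tnfrsf10b*, from 4.42 to 46.0 FPKM. The 3 that fell were the DNA damage sensor *Xpc*, from 10.1 to 1.08 FPKM, the *Sesn2* relative *Sesn1*, from 22 to 3.68 FPKM, and the mTORC1 inhibitor *Ddit4*, from 46.4 to 10.6 FPKM. Of 13 genes for p53 and its regulators, 3 were called higher and 6 lower than in E13.5 embryos, with a median log2 fold change of -0.52. The counts were 3 and 9 of 12 tested against E9.5 embryos (median -1.25) and 6 and 2 of 13 against brain (median 0.83). Among those higher than in E13.5 embryos was *Trp53* and among those lower *Trp53bp1*, a DNA damage response factor, from 25.8 to 6.13 FPKM.

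Of 17 genes of the oxidative and integrated stress responses, 13 were called higher and 0 lower than in E13.5 embryos, with *Chac1*, which degrades glutathione, at 10.4 against 0.717 FPKM and the heme oxygenase gene *Hmox1* at 141 against 21.7 FPKM. Against E9.5 embryos the counts were 15 and 2, and against brain 11 and 4. Of 17 cell cycle inhibitor and senescence genes, 6 were called higher and 4 lower than in E13.5 embryos, a share higher near that of all genes. The counts were 8 and 2 against E9.5 embryos and 12 and 3 against brain. *Cdkn2b*, the neighbor of *Cdkn2a* that encodes p15INK4b, was at 18.1 against 0.583 FPKM, while *Lmnb1*, a lamin gene known to fall in senescent cells, was at 22.8 against 126 FPKM. Proliferation genes went with the tissue compared. Of 14, 9 were called higher and 2 lower than in E13.5 embryos, 0 and 11 against E9.5 embryos, and 14 and 0 against brain. The mEFs thus held both the arrest gene *Cdkn1a* at 120 FPKM or more and the mitotic cyclin gene *Ccnb1* at 82.7 FPKM, against 71.6 in E13.5 embryos.

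The next comparison was within WT mEFs, between the 4 sets. The p53 targets differed by up to 5.33-fold between sets of the same genotype. Between sets 9 of 10 genes were called at an adjusted p under 0.05, but so were 88.1% of 14437 genes. The median gene had a ratio of 1.83 between its highest and lowest set, and 8 of the 10 lay above that. Of the 10, 7 lay above the upper quartile of all genes, a log2 range of 1.24.

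*Cdkn2a* had a ratio of 6.16. Its CPM was 12.3, 12.8 and 11.3 in the WT mEFs of the *Chaserr*+/- set, 1.41, 2.15 and 2.36 in those of the *Chaserr*-/- set, 2.2, 3.87 and 4.19 in those of the *Chd2*m/m set and 2.11, 2.73 and 4.61 in those of the double-mutant set (adjusted p = 2.24e-06 from edgeR). The *Chaserr*+/- set stood above all others and the other 3 sets ran into each other. *Ccng1* had a ratio of 5.33, from 236, 304 and 250 CPM in the *Chaserr*-/- set to 1380, 1400 and 1450 in the *Chd2*m/m set. It had 638, 555 and 685 CPM in the *Chaserr*+/- set and 1270, 1010 and 1440 in the double-mutant set, which overlapped with the highest set and passed it on the FPKM scale.

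*Mdm2* ran from 91.1, 102 and 104 CPM in the *Chaserr*-/- set to 388, 448 and 418 in the *Chd2*m/m set, a ratio of 4.22, and no neighboring sets overlapped. *Eda2r* had a ratio of 3.93 between the same sets. *Cdkn1a* was lowest in the double-mutant set, with 227, 231 and 260 CPM, and highest in the *Chd2*m/m set, with 770, 941 and 904 CPM. Its ratio was 3.64, and its 2 lowest sets overlapped. *Phlda3* followed the same order with a ratio of 3.28.

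*Trp53inp1* had a ratio of 3.52 with its highest mean in the double-mutant set, where 1 library had 201 CPM and the others 119 and 90.4. *Zmat3* had a ratio of 2.14, *Sesn2* of 1.80 and *Bbc3* of 1.49, and *Bbc3* was not called (adjusted p = 0.0553). *Sesn2* went the other way from most, with its highest mean, 46.2 CPM, in the *Chaserr*-/- set and its lowest, 25.6 CPM, in the double-mutant set.

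**Figure D3:**
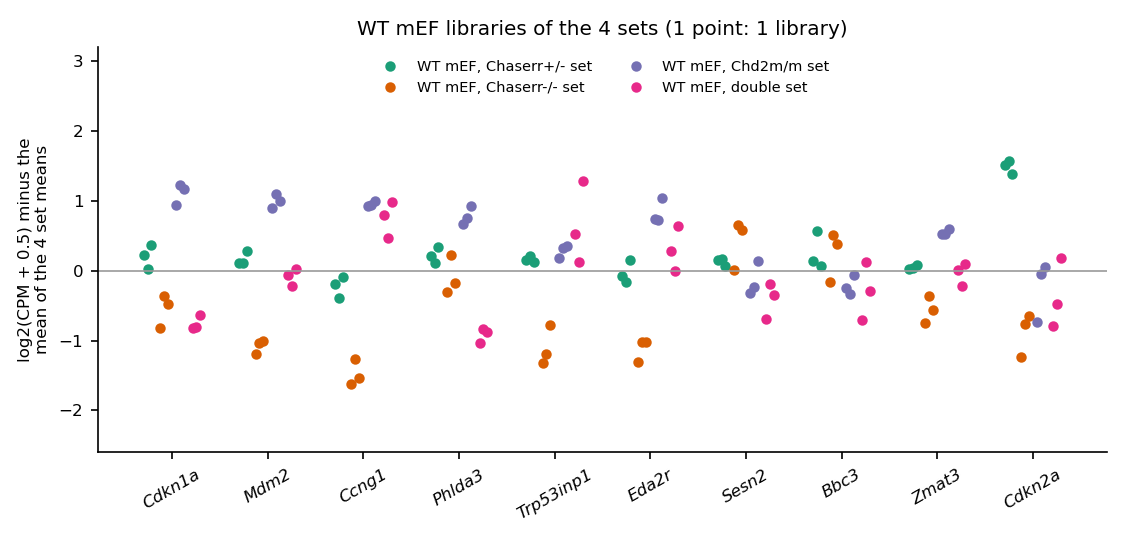
Each WT mEF library's log2(CPM + 0.5) minus the mean of the 4 set means, for the 10 genes, with sets in color and 1 point per library. The *Chd2*m/m set lies highest for 6 genes and the *Chaserr*-/- set lowest for 6, and *Cdkn2a* is set apart by the *Chaserr*+/- set.

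The order of the sets was partly shared. The WT mEFs of the *Chd2*m/m set had the highest mean of 6 of the 10 genes, beside 23.6% of all genes, and those of the *Chaserr*-/- set the lowest of 6, beside 29.3%. The lowest of the remaining 4 was the double-mutant set, beside 30.7% of all genes. The further p53 targets had a like order, with 15 of 27 highest in the *Chd2*m/m set, and 12 lowest in each of the *Chaserr*-/- and double-mutant sets. The median log2 range of those 27 was 1.14, beside 1.83 for the 10 and 0.87 for all genes.

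Cell type markers moved between the sets too. Of 17 macrophage markers, 12 were highest in the *Chaserr*-/- set, where the list summed to 803, 879 and 989 FPKM, with *Fcer1g* the most abundant at 223 FPKM. The sums were 186, 227 and 240 in the *Chaserr*+/- set, 369, 457 and 526 in the *Chd2*m/m set and 505, 526 and 567 in the double-mutant set. All 14 skeletal muscle markers were highest in the *Chaserr*-/- set, with sums of 702, 884 and 1230 FPKM and *Actc1* the most abundant, against 354, 449 and 596 in the *Chd2*m/m set. Fibroblast markers summed to 1500, 1640 and 1650 FPKM in the *Chd2*m/m set and to 3600, 3730 and 3770 in the *Chaserr*-/- set. All 9 neuron and glia markers tested were highest in the *Chd2*m/m set, the set highest for most p53 targets, with sums of 32.4, 37.1 and 46.2 FPKM there and between 10.8 and 29.3 in the other sets. No macrophage, muscle or fibroblast marker was at 0 in the WT mEFs, and the part of these lists in the spread of the p53 targets was not tested.

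Across the 12 WT mEF libraries the genes whose log2 CPM was most like that of *Cdkn1a*, among 8239 genes with a mean of at least 5 FPKM, were *Rhoc* (Pearson r = 0.987), *Fez2* (0.986), *Aif1l* (0.985), *Fxyd5* (0.982) and *Txnl4a* (0.981). None is on the lists used here. Within the p53 targets, *Phlda3* (r = 0.91), *Mdm2* (0.831) and *Zmat3* (0.823) were nearest, *Eda2r* (0.627), *Ccng1* (0.454) and *Trp53inp1* (0.258) less so and *Sesn2* (0.0163) least. The gene second most like *Cdkn2a* was its neighbor *Cdkn2b* (r = 0.978), after *Prkcsh* (0.981), and *Cdkn1a* was at 0.334. The 12 libraries fall into 4 sets of 3, so these values mostly describe 4 set means. After taking out the set means, r with *Cdkn1a* was 0.802 for *Mdm2*, 0.778 for *Phlda3*, 0.697 for *Ccng1* and 0.684 for *Zmat3*. It was 0.674 for *Cdkn2a*, 0.661 for *Eda2r*, 0.587 for *Sesn2* and 0.405 for *Trp53inp1*, and that of *Cdkn2b* with *Cdkn2a* was 0.872.

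The last comparisons set each mutant against the WT libraries of its own set. No mutant changed any of the 10 genes at an adjusted p under 0.05 in edgeR, and few genes of any kind passed. With 1 mutated copy of *Chaserr*, the share of all genes called was 0.0% at E9.5, 0.0314% at E13.5, 0.0% in brain and 0.173% in culture. It was 0.118% for *Chaserr*-/- cells, 0.0145% for *Chd2*m/m cells and 0.0924% for double mutants. For the comparisons without any call, 453 of 14500 genes in E9.5 embryos and 368 of 14911 in brains had an unadjusted p under 0.05, and DESeq2 called 5 genes and 1 gene. An unadjusted p under 0.05 was reached by 0 of 9 members tested at E9.5 (3.12% of all genes), 2 of 9 at E13.5 (6.34%), 1 of 8 in brain (2.47%) and 2 of 10 in heterozygous cells (8.36%). It was reached by 4 of 10 in *Chaserr*-/- cells, near the 33.9% of all genes, by 0 of 10 in *Chd2*m/m cells (4.51%) and by 6 of 10 in double mutants (9.89%). DESeq2 called 4 of the 10 in *Chaserr*-/- mEFs, where it called 21.7% of all genes with an adjusted p. It called 2 in double mutants, where it called 1.65%, and 0 elsewhere.

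**Figure D4:**
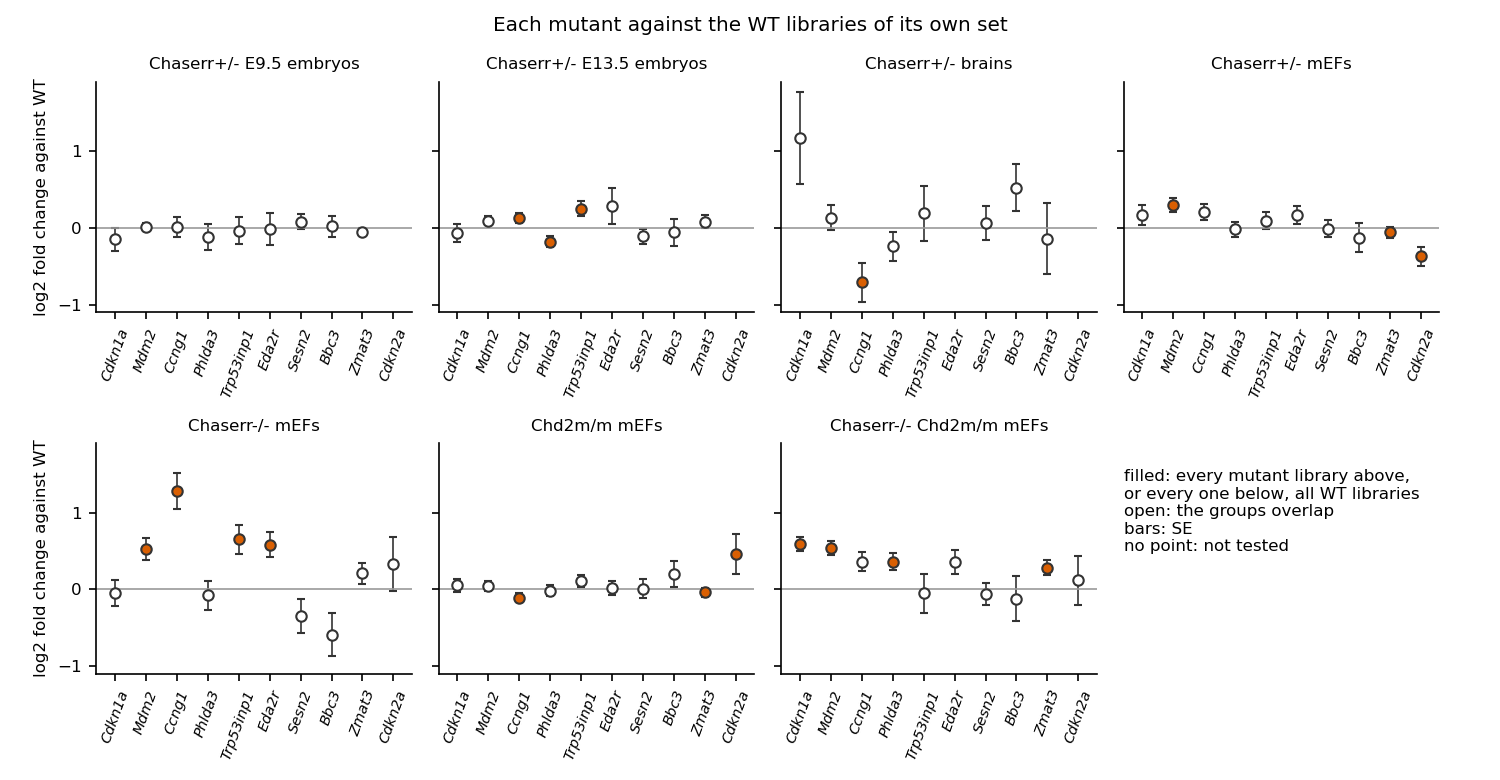
Log2 fold change of each gene in the 7 mutants against the WT libraries of the same set, with bars of 1 SE. Filled points are genes whose mutant and WT libraries do not overlap, 4 of them in each set that lacks *Chaserr*, and the widest bar is that of *Cdkn1a* in brain.

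In *Chaserr*-/- mEFs 4 p53 targets other than *Cdkn1a* lay above WT without passing the threshold. *Ccng1* was at 236, 304 and 250 CPM in WT and at 873, 430 and 572 CPM in *Chaserr*-/- mEFs, all above WT, a log2 fold change of 1.28 (SE 0.239, adjusted p = 0.0522 from edgeR). *Mdm2* was at 91.1, 102 and 104 against 149, 116 and 155 CPM, a log2 fold change of 0.53 (SE 0.142, adjusted p = 0.054). *Trp53inp1* was at 32.9, 35.9 and 48.0 against 72, 53 and 54.1 CPM (0.65, adjusted p = 0.058), and *Eda2r* at 25.4, 31.1 and 31.0 against 49.4, 36.1 and 42.2 CPM (0.58, adjusted p = 0.0567). Wholly above WT were thus 4 of 10, where 20.5% of all genes were.

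The call of these 4 genes turned on the settings. Unadjusted p was under 0.05 for 33.9% of all 13580 genes in this comparison, and the adjusted values of many of them lay just above the threshold. DESeq2 called all 4 (adjusted p = 1.44e-05 for *Ccng1*, 0.00911 for *Mdm2*, 0.0119 for *Trp53inp1* and 0.0168 for *Eda2r*), among 2590 genes. Without *Chaserr*-/- replicate 2 the same 4 were called in edgeR, with an adjusted p of 0.0151 for *Ccng1*, among 2827 genes, and without *Chaserr*-/- replicate 1, which had the highest level of *Ccng1*, that gene alone of the 10 was (log2 fold change 0.94, adjusted p = 0.0219), among 1015 genes. *Cdkn1a* did not follow, with 228, 313 and 288 CPM in WT and 204, 265 and 319 in *Chaserr*-/- mEFs, which overlapped (log2 fold change -0.05, SE 0.174, adjusted p = 0.866). *Bbc3* was at 5.63, 9.24 and 8.42 against 3.48, 6.69 and 4.9 CPM and *Sesn2* at 34.1, 53.5 and 50.9 against 25.6, 38.2 and 42.9 CPM, with overlap in both.

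Cell type markers differed between these libraries as well. Macrophage markers summed to 602, 632 and 652 FPKM in *Chaserr*-/- mEFs against 803, 879 and 989 in WT, and *Cd68* and *Laptm5* were called lower. Skeletal muscle markers summed to 472, 515 and 519 against 702, 884 and 1230 FPKM, and *Acta1* was called lower (log2 fold change -1.15, adjusted p = 0.0354). Fibroblast markers summed to 2860, 3010 and 3470 against 3600, 3730 and 3770 FPKM and erythroid markers to 28.6, 46.7 and 58.2 against 146, 156 and 346 FPKM. The 14 proliferation genes summed to 806, 872 and 1030 FPKM against 702, 751 and 790 in WT, with *Pcna*, the most abundant, at a mean of 264 against 178, but 5 lay wholly above and 5 wholly below WT. Their part in the values of the p53 targets was not tested.

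In the double mutants *Cdkn1a* and *Mdm2* lay above WT, close to the threshold. *Cdkn1a* was at 227, 231 and 260 CPM in WT and 355, 357 and 380 in *Chaserr*-/- *Chd2*m/m mEFs, a log2 fold change of 0.59 (SE 0.092, unadjusted p = 6.38e-05, adjusted p = 0.0573 from edgeR). *Mdm2* was at 200, 179 and 211 against 264, 309 and 293 CPM, a log2 fold change of 0.54 (SE 0.0938, adjusted p = 0.0704). *Phlda3*, at 51.2, 58.7 and 57.0 against 75.1, 77.2 and 65.1 CPM (0.36, adjusted p = 0.255), and *Zmat3*, at 381, 326 and 407 against 460, 472 and 438 CPM (0.28, adjusted p = 0.343), were also wholly above WT. In all 4 of 10 lay above, beside 7.21% of all genes. DESeq2 called *Cdkn1a* (adjusted p = 5.45e-06) and *Mdm2* (0.000131), among 220 genes. Without WT replicate 3 edgeR called the same 2 (adjusted p = 0.0207 and 0.0344), among 201 genes, and with a replicate block *Cdkn1a* alone of the 10 (0.0337), among 75. Of the 10, 6 had an unadjusted p under 0.05, beside 9.89% of all genes. *Ccng1* had 1270, 1010 and 1440 against 1400, 1700 and 1720 CPM and overlapped (log2 fold change 0.36, adjusted p = 0.364).

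The 2 sets that lack *Chaserr* thus shared *Mdm2* among the genes above WT, while *Cdkn1a* was above WT in the double mutants and overlapped with WT in *Chaserr*-/- mEFs. Whether the sets differ in these changes was not tested. Macrophage markers summed to 322, 338 and 473 FPKM in the double mutants and 505, 526 and 567 in their WT, and *Mrc1* was called lower. Skeletal muscle markers summed to 508, 634 and 644 against 363, 420 and 457 FPKM in WT, with 11 of 14 higher at an unadjusted p under 0.05, the opposite direction to *Chaserr*-/- mEFs. Fibroblast markers summed to 1950, 2090 and 2190 against 2250, 2760 and 2790 FPKM, with 7 of 10 lower and 1 higher at that p. The part of these lists in the values of the p53 targets was not tested.

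**Figure D5:**
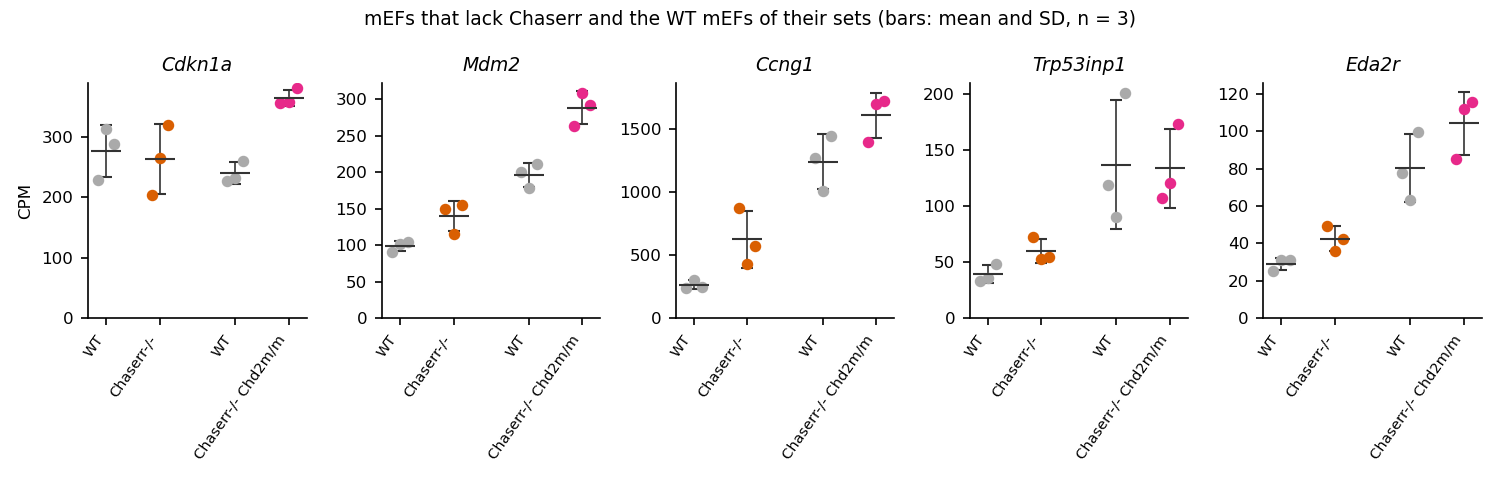
CPM of 5 p53 targets in the mEFs that lack *Chaserr* and in the WT mEFs of the same sets, with 1 point per library and bars for the mean and SD of 3 libraries. *Mdm2* is above its WT in both sets, and each *Chaserr*-/- level of *Ccng1*, *Mdm2* and *Eda2r* lies below every WT library of the double-mutant set.

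In *Chaserr*+/- mEFs *Mdm2* and *Cdkn2a* stood on opposite sides of WT. *Mdm2* was at 224, 224 and 253 CPM in WT and 311, 297 and 254 in *Chaserr*+/- mEFs, above WT (log2 fold change 0.30, SE 0.0945, adjusted p = 0.359). *Cdkn2a* was at 12.3, 12.8 and 11.3 against 8.9, 9.51 and 9.84 CPM, below WT (-0.37, SE 0.125, adjusted p = 0.403). *Zmat3* was at 388, 389 and 402 against 380, 382 and 373 CPM, also below WT (-0.06, adjusted p = 0.886). In all 3 of 10 genes did not overlap with WT, beside 14.3% of all genes. *Cdkn1a* overlapped (0.17, adjusted p = 0.792). Skeletal muscle markers summed to 298, 339 and 453 FPKM in these cells against 220, 220 and 238 in WT, with 12 of 14 wholly above WT and 1 called, and chondrocyte markers to 118, 129 and 162 against 99.5, 111 and 112, with 4 of 10 tested wholly above. Macrophage sums overlapped, at 135 to 293 against 186 to 240 FPKM, and the part of these lists was not tested.

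*Chd2*m/m mEFs, with 2 libraries, had *Ccng1* at 1270 and 1330 CPM below the 1380, 1400 and 1450 of WT (log2 fold change -0.11, adjusted p = 0.937) and *Cdkn2a* at 4.34 and 5.02 CPM above the 2.2, 3.87 and 4.19 of WT (0.46, SE 0.263, adjusted p = 0.937). Of 10 genes, 3 did not overlap with WT, beside 20.7% of all genes. *Cdkn1a* was at 870 and 922 CPM against 770, 941 and 904 in WT (0.05, adjusted p = 0.959).

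In brain *Ccng1*, an attenuator of p53, and *Cdkn1a* stood on opposite sides. *Ccng1* was at 63.2, 65.7 and 94.7 CPM in WT and 39.0, 38.0 and 59.6 in *Chaserr*+/- brains, all below WT (log2 fold change -0.71, SE 0.252, adjusted p = 1.0 from edgeR). It was 1 of 8 members tested there without overlap, beside 9.32% of all genes. *Cdkn1a* was at 32.7, 35.3 and 12.4 against 47.5, 107 and 25.4 CPM, and the groups overlapped (1.17, SE 0.601, adjusted p = 1.0). Over the alternatives its log2 fold change ran from 0.45 to 1.54. The last library of each trio was made with the TruSeq kit, and within each kit every *Chaserr*+/- brain had more *Cdkn1a* and less *Ccng1* than every WT brain. With kit as a covariate the log2 fold change of *Ccng1* was -0.72 (adjusted p = 0.202) and that of *Cdkn1a* 1.14 (adjusted p = 0.228). Neither passed the threshold. Neuron and glia markers summed to 3920, 4470 and 4910 FPKM in *Chaserr*+/- brains, below the 5000, 5140 and 7890 of WT. These sums lean on *Mbp*, the most abundant, with a mean of 1930 against 2900 FPKM. Of the 10 markers 1 lay wholly above WT and 1 wholly below, with a median log2 fold change of -0.12 and 0 called. The part of these markers was not tested.

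In embryos *Cdkn1a* overlapped with WT, with a log2 fold change of -0.15 at E9.5 (SE 0.147, adjusted p = 1.0) and -0.07 at E13.5 (SE 0.12, adjusted p = 0.888). At E9.5 all 9 members tested overlapped with WT, where 9.11% of genes did not. At E13.5 *Ccng1*, at 52.4, 47.8 and 54.4 against 46.9, 47.5 and 47.5 CPM (0.13, adjusted p = 0.732), and *Trp53inp1*, at 36.1, 36.7 and 44.8 against 31.0, 34.2 and 34.2 CPM (0.25, adjusted p = 0.732), lay above WT. *Phlda3* lay below (-0.18, adjusted p = 0.732), and over all genes 4.97% lay wholly above and 7.06% wholly below.

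The mutant levels were also set against the spread of WT cultures. The mean of *Chaserr*-/- mEFs lay within the range of the 4 WT set means for 9 of the 10 genes, *Ccng1* with 625 CPM between 264 and 1410 among them. It did for 10 genes in heterozygous cells, 7 in *Chd2*m/m mEFs and 7 in double mutants, where *Ccng1*, at 1610 CPM, was above every WT set. Over all genes the shares within the range were 86.5%, 73.5%, 75.2% and 72.3%.

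In edgeR none of the further p53 targets, regulators, cell cycle inhibitors, proliferation genes or stress genes was called in any of the 7 mutants. DESeq2 called 5 of 27 further p53 targets higher and 0 lower in double mutants, where it called 1.65% of all genes. It called 5 higher and 1 lower in *Chaserr*-/- mEFs, where it called 21.7%, and 1 higher in *Chaserr*+/- mEFs, where it called 0.585%. In *Chaserr*-/- mEFs it also called 1 higher and 1 lower of 13 regulators and 5 and 1 of 17 cell cycle inhibitors. There it called 5 and 2 of 14 proliferation genes and 1 and 2 of 17 stress genes. In double mutants it called 1 stress gene lower. At an unadjusted p under 0.05, 9 of 27 further p53 targets were higher and 0 lower in the double mutants, beside 9.89% of all genes in either direction, and 6 higher and 1 lower in *Chaserr*+/- mEFs, beside 8.36%. In *Chaserr*-/- mEFs 5 were higher and 3 lower, a share close to the 33.9% of all genes. Among those higher in both sets that lack *Chaserr* were the kinase gene *Plk2* (log2 fold change 0.45 in *Chaserr*-/- and 0.62 in double mutants, adjusted p = 0.0636 and 0.0704) and *Pmaip1*, which encodes the BH3-only protein NOXA (1.17 and 0.65, adjusted p = 0.054 and 0.214). These 2 genes were picked out after their values were seen.

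CHD2 RIP asked which RNAs came down with the protein. *Sesn2* was the only 1 of 9 members tested to be called, while 11.1% of all genes were called higher. It was at 84.8 and 69.9 CPM in the CHD2 libraries against 22.6 and 21.9 in IgG, a log2 fold change of 1.80 (SE 0.339, adjusted p = 0.0141 from edgeR). Input had 104 and 60.7 CPM, so that the CHD2 libraries were not above input (log2 fold change -0.09, adjusted p = 0.869). Leaving out a CHD2 library leaves 1 in that group, so such a fit could not check the call. *Trp53inp1* was at 17.3 and 11.1 CPM against 3.69 and 5.42 in IgG and 2.51 and 2.95 in input, a log2 fold change of 1.64 (adjusted p = 0.0511) against IgG and 2.37 (adjusted p = 0.0168) against input. *Cdkn2a* was at 24.2 and 20.3 CPM in input, 2.47 and 5.22 in the CHD2 libraries and 0.0479 and 2.75 in IgG, the last pair being 1 and 34 counts. The levels of *Mbp* and α-globin given above were highest in IgG and lowest in input, the opposite order to that of *Cdkn2a*. The part of *Mbp* and α-globin RNA in these values was not tested.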

How the data were processed

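The authors mapped strand-specific paired-end reads and quantified genes with RSEM on a RefSeq annotation in which the last exon of *Chaserr* was edited. Per the file headers, each deposited table gives expected counts, FPKM and TPM for 24990 genes, and 23823 were matched to a RefSeq symbol. The expected counts were rounded before testing with edgeR 4.0.16 in R 4.3.3 (filterByExpr, TMM, quasi-likelihood test, Benjamini-Hochberg over all genes tested, threshold 0.05). CPM values were scaled with TMM factors over the 41 poly(A) libraries and, separately, over the RIP libraries. The deposited FPKM values are used as given, and the TPM values were not used. ATAC-seq peaks, called by the authors with MACS2 in each library on mm9, carry the deposited peak score, fold enrichment and −log10 q-value. Presence of a peak was used, and a stricter −log10 q-value of 5 was tried. Start sites and sequences came from NCBIM37, the same build.

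The test was checked on simulated counts. Of the comparisons, *Chaserr*+/- brain recovered the smallest share of the changes put in, so the lack of calls in brain says little. DESeq2 1.42.0, other filters, total counts in place of TMM, a replicate block and leaving out each library were the alternatives. Leaving out the ATAC-seq libraries with the fewest peaks and set ratios on the FPKM scale were added after seeing the data. Same-numbered brains deviated together (correlations 0.437, 0.529 and 0.747), with replicate 3 of each genotype from the other kit; the other poly(A) sets that share numbers showed no such pairing. The text names the 10 members, *Chaserr* and *Chd2*, and from each list at most 3 called genes each way with the largest change, a mean of at least 1 FPKM and no overlap. It also names the 5 genes most like *Cdkn1a* and the leading ones for *Cdkn2a*, the most abundant marker genes, and 2 further genes chosen after their values were seen. The members, lists and tests were chosen with earlier results of these data known. The remaining samples, from 4C, were not analysed here. Not every gene that the naming rule picks is reported here.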

Additional observations from a re-analysis of the deposited data

Results flagged for a closer look

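*Ccng1* stood out because its libraries moved to opposite sides of WT in a pair of *Chaserr*+/- tissues. Every *Chaserr*+/- E13.5 embryo was above every WT embryo, with a log2 fold change of 0.13, and every *Chaserr*+/- brain was below every WT brain, with a log2 fold change of -0.71. Neither passed the threshold in edgeR, and the difference between the tissues was not tested.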

How the results depend on the processing

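The counts of members called in the tissue comparisons and between the WT sets, the motif count and the peak count stayed within 1.5 times of the value given. In *Chaserr*-/- mEFs the count of 0 became 4 in DESeq2, 3 without a filter on low counts, 4 with at least 10 counts in every library and 3 with total counts in place of TMM, and ran from 0 to 4 when 1 library was left out. In the double mutants it became 2 in DESeq2, 2 without a filter, 1 with at least 10 counts in every library and 1 with the replicate block, and ran from 0 to 2 when 1 library was left out. In the CHD2 RIP the count of 1 became 2 in DESeq2, 2 without a filter, 3 with input in place of IgG and 2 with the replicate block. Leaving out a RIP library leaves 1 in its group, so those fits are not counted. Over all genes the calls in *Chaserr*-/- mEFs went from 16 to 2590 in DESeq2, with 1111 to 1407 under the other filters and total counts, and in the double mutants from 13 to 220, and 201 without WT replicate 3; the cause was not tested. Same-numbered CHD2 and IgG libraries had correlated deviations (0.192), but 2 pairs do not establish a pairing, and over all genes the block moved the calls in RIP from 1707 to 3757. No other call on the members changed with the block, and the block could not be fitted in the *Chaserr*-/- set, whose WT libraries carry other numbers.

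Some directions turned. The log2 fold change of *Cdkn1a* ranged from -0.15 to 0.08 in E13.5 embryos, from -0.21 to 0.10 in *Chaserr*-/- mEFs and from -0.03 to 0.11 in *Chd2*m/m mEFs when 1 library was left out. With total counts *Bbc3* turned to -0.11 against E13.5 embryos. With input in place of IgG, *Cdkn1a* turned to -1.12, *Mdm2* to -0.04, *Sesn2* to -0.09, *Cdkn2a* from 1.56 to -2.52 and *Phlda3* from 0.12 to -1.20. Depth limits *Cdkn2a* in tissues, where no library had more than 3 counts in WT, and *Eda2r* in brain.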
